A study of Homo sapiens with 8 samples.

Results

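The death receptors and the caspase-8 pathway were followed as 8 genes in MM1.S, an established human myeloma line of plasma-cell origin. The members were TNFRSF10A, TNFRSF10B and FAS (receptors), FADD and RIPK1 (adaptor and kinase), and CASP8, CASP10 and CFLAR (caspases and their regulator). They were found by exact gene name, all 8 among the 16295 genes of the deposited table, and all 8 were among the 14164 genes with enough reads to be tested. Cells were kept for 24 h with 0.5 uM MS177, 0.5 uM MS177N1, 0.5 uM C24 or the solvent DMSO, with 2 libraries in each of the 4 groups, and the RNA was sequenced. From background knowledge, MS177 is a degrader of the histone methyltransferase EZH2 that recruits the ubiquitin ligase receptor CRBN, MS177N1 is its control compound, made so as not to degrade EZH2, and C24 is the EZH2 inhibitor from which MS177 was made. Whether replicate libraries came from separate cultures is not stated, so p-values cover the spread between libraries, and that spread could be technical.

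Death receptors are surface proteins of the tumour necrosis factor receptor family that carry an intracellular death domain. When TRAIL or FAS ligand binds, the receptor gathers the adaptor FADD, which in turn gathers caspase-8 and caspase-10, and these cut one another into active proteases that start apoptosis. The caspase-like protein c-FLIP, encoded by CFLAR, joins the same complex and limits caspase-8, while the kinase RIPK1 can turn the signal towards NF-kB, apoptosis or necroptosis. TRAIL receptors are known to be present on myeloma cells.

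With MS177, 5 of the 8 genes changed against DMSO: TNFRSF10B, CFLAR, CASP10 and CASP8 rose and FADD fell. TNFRSF10A, FAS and RIPK1 were not called. A gene was called at a limma adjusted p under 0.05, and 57.9% of all tested genes were called in that comparison, so the share of the members lay near the background. The median absolute log2 fold change was 0.37 over the 8 members and 0.41 over all tested genes. In single directions the background was 28.9% higher, against 4 of 8 members, and 29% lower, against 1 of 8. With MS177N1, limma called 0 of 8 members against DMSO, where 0.0353% of all genes were called, all of them lower. With C24 it again called 0 of 8, where 0.0918% of all genes were called, 0.0212% higher and 0.0706% lower. By unadjusted limma p under 0.05 the count of members was also 0 in both. Of all 14164 tested genes, 718 with MS177N1 and 762 with C24 were under that threshold. Called by limma-voom were again 0 members in both. Levels below are normalized reads, that is, reads divided by the size factor of the library.

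**Figure D1:**
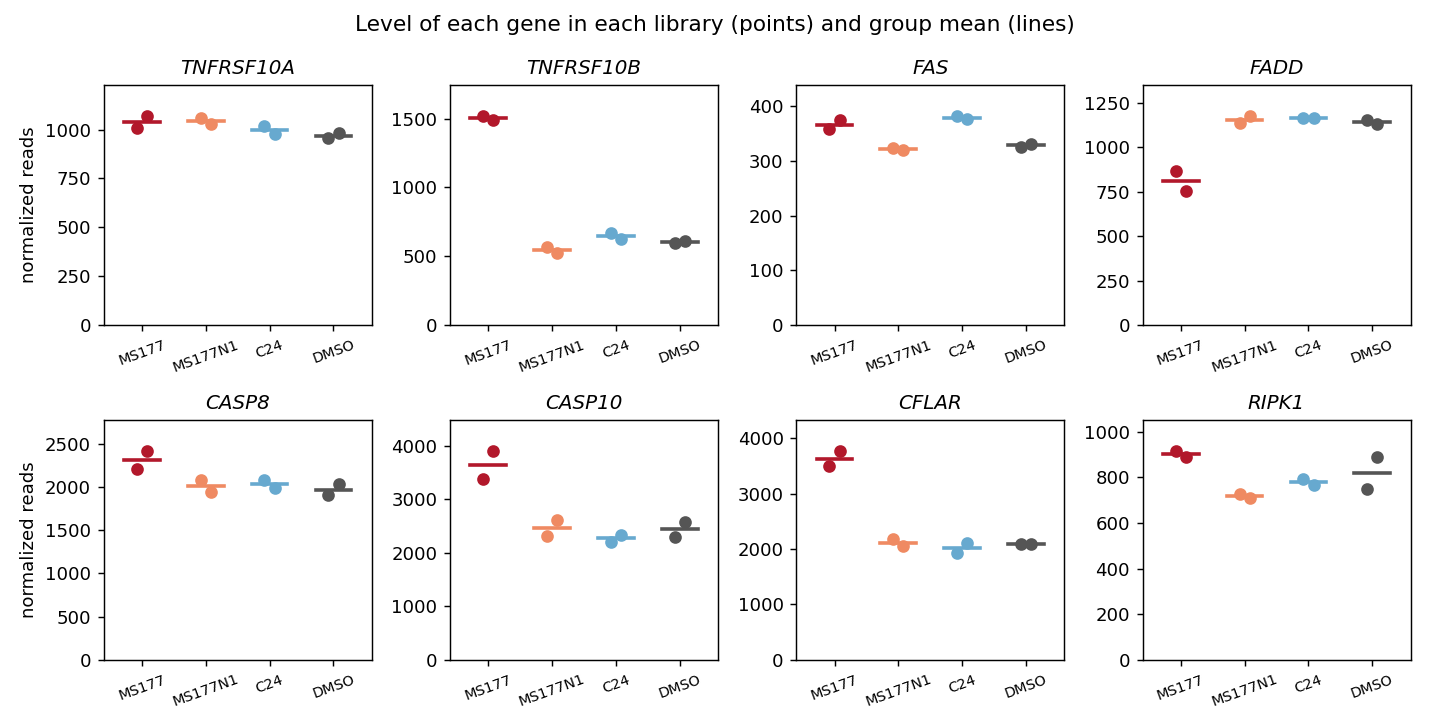
Normalized reads of each of the 8 genes (vertical axes, starting at 0) in the MS177, MS177N1, C24 and DMSO groups; points are the 2 libraries of a group and lines are group means. TNFRSF10B, CFLAR and CASP10 stand above the other 6 libraries with MS177, FADD stands below them, and TNFRSF10A differs little between groups.

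Among the receptors, TNFRSF10B, which encodes the TRAIL receptor DR5, showed the largest change of the 8 genes. It had 1517 and 1493 normalized reads with MS177, 570 and 527 with MS177N1, 666 and 623 with C24, and 599 and 613 with DMSO. Both MS177 libraries lay far above the other 6, which spanned 527 to 666. The level was 2.48-fold higher with MS177 than with DMSO (log2 fold change 1.31, standard error 0.08, limma adjusted p = 1.41e-09). Against the matched compounds at the same dose and time, the MS177 level was higher by 1.46 (SE 0.08, limma adjusted p = 4.45e-10) than with MS177N1 and by 1.22 (SE 0.08, limma adjusted p = 3.15e-09) than with C24, on the log2 scale. The gene overlaps RHOBTB2 on the other strand, with 67 of its 4146 annotated exon bases shared, and the library kit as labelled is not stated to mark strand. RHOBTB2 moved the other way, with 502 and 522 normalized reads with MS177 against 808 and 845 with DMSO (log2 fold change -0.69, SE 0.08, limma adjusted p = 1.49e-06).

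TNFRSF10A encodes DR4, the other TRAIL receptor with a death domain, and lies in the same receptor gene cluster. Its level was 1010 and 1068 normalized reads with MS177, 1060 and 1027 with MS177N1, 1018 and 978 with C24, and 959 and 981 with DMSO. The MS177 and MS177N1 libraries overlapped and all 8 values lay within a 1.11-fold range. The change with MS177 against DMSO was 0.10 on the log2 scale, with a 95% confidence interval from -0.05 to 0.25 (limma adjusted p = 0.247). Scaling by total reads in place of the authors' size factors put that change past the threshold at 0.18 (limma adjusted p = 0.0367). That scaling moved all genes up by about 0.085 on the log2 scale with MS177 against DMSO.

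FAS encodes the receptor of FAS ligand and was the lowest of the 8 genes, with 296 to 446 reads per library before normalization. It had 358 and 374 normalized reads with MS177, 323 and 319 with MS177N1, 382 and 377 with C24, and 326 and 332 with DMSO. The MS177 and C24 libraries were both above the MS177N1 and DMSO libraries. None of these differences was called, but that between MS177 and MS177N1 passed with total-read scaling, at 0.26 (limma adjusted p = 0.0376). The log2 fold change was 0.15 with MS177 (95% interval -0.06 to 0.37, limma adjusted p = 0.209) and 0.21 with C24 (95% interval -0.01 to 0.42, limma adjusted p = 0.908), each against DMSO.

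The balance of the TRAIL receptors was also read within each library. Reads of TNFRSF10B per read of TNFRSF10A were 1.503 and 1.398 with MS177, 0.538 and 0.513 with MS177N1, 0.654 and 0.637 with C24, and 0.625 and 0.626 with DMSO. Both MS177 libraries lay above the other 6, and such a ratio needs no scaling between libraries. The decoy receptors, which bind TRAIL without passing on the death signal, were low: TNFRSF10D had 128 and 110 normalized reads with MS177 against 95.8 and 122 with DMSO, and TNFRSF10C had 17.1 and 4.68 against 12.1 and 8.65. Neither was called (limma adjusted p = 0.625 for TNFRSF10D and 0.882 for TNFRSF10C).

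FADD, the adaptor that links the receptors to the initiator caspases, was the member that fell. It had 865 and 755 normalized reads with MS177, 1137 and 1174 with MS177N1, 1165 and 1165 with C24, and 1155 and 1132 with DMSO. Both MS177 libraries were below the other 6, which lay between 1132 and 1174. The mean was 810 ± 77.8 with MS177 and 1143 ± 16.3 with DMSO (SD, n = 2 each), a level 1.41-fold lower with MS177 (log2 fold change -0.50, SE 0.08, limma adjusted p = 3.56e-05). The difference was -0.52 (SE 0.08, limma adjusted p = 2.66e-05) against MS177N1 and -0.53 (SE 0.08, limma adjusted p = 2.06e-05) against C24.

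RIPK1, the kinase that sits between survival and death signals of these receptors, had 915 and 888 normalized reads with MS177, 728 and 709 with MS177N1, 792 and 766 with C24, and 748 and 889 with DMSO. The DMSO libraries differed from each other more than those of any other member and group, with DMSO replicate 2 inside the MS177 range. Against DMSO the change was 0.14 (95% interval -0.04 to 0.33, limma adjusted p = 0.168), and it depended on the DMSO library left out. Without DMSO replicate 1 it was 0.02 (limma adjusted p = 0.871), and without DMSO replicate 2 it was 0.27 and past the threshold (limma adjusted p = 0.0228). RIPK1 was higher with MS177 than with MS177N1 by 0.33 (SE 0.09, limma adjusted p = 0.00421) and than with C24 by 0.21 (SE 0.09, limma adjusted p = 0.0470). The difference from C24 lost its call in 8 of the 18 alternative settings, among them leaving out either MS177, MS177N1 or C24 library, where the adjusted p lay between 0.0597 and 0.190.

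**Figure D2:**
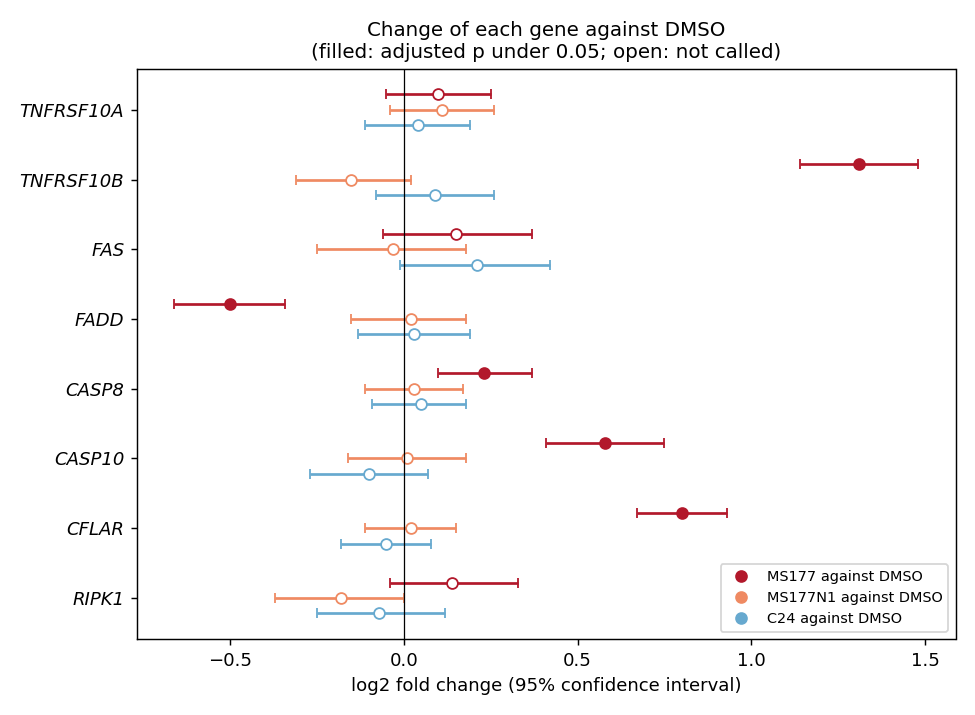
Log2 fold change against DMSO (horizontal axis) with its 95% confidence interval for each gene, for MS177, MS177N1 and C24; filled points passed an adjusted p of 0.05. The MS177 points of TNFRSF10B (1.31), CFLAR (0.80), CASP10 (0.58) and CASP8 (0.23) lie right of 0 and that of FADD (-0.50) lies left, while every MS177N1 and C24 point is open.

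The initiator caspases and c-FLIP are paralogs that lie next to one another on chromosome 2, in the order CFLAR, CASP10, CASP8, and all of them rose with MS177. CFLAR had 3491 and 3767 normalized reads with MS177, 2171 and 2055 with MS177N1, 1928 and 2106 with C24, and 2084 and 2083 with DMSO. CASP10 had 3388 and 3904 with MS177, 2308 and 2607 with MS177N1, 2210 and 2330 with C24, and 2305 and 2578 with DMSO. For both genes the MS177 libraries lay above the other 6, and the 3 remaining groups overlapped. CFLAR was 1.74-fold higher with MS177 than with DMSO (log2 fold change 0.80, SE 0.06, limma adjusted p = 2.24e-08), and CASP10 was 1.49-fold higher (0.58, SE 0.08, limma adjusted p = 2.50e-05).

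CASP8, the main initiator caspase of the receptor complex, had the smallest change of the cluster. Its level was 2212 and 2415 normalized reads with MS177, 2079 and 1938 with MS177N1, 2074 and 1991 with C24, and 1906 and 2029 with DMSO. The MS177 libraries were the highest, and the nearest other library, MS177N1 replicate 1, was at 2079 against 2212 in MS177 replicate 1. The change against DMSO was 1.18-fold (log2 fold change 0.23, SE 0.06, limma adjusted p = 0.00566), and without DMSO replicate 1 it was 0.19 with a limma adjusted p of 0.0589. CASP8 also differed from MS177N1 by 0.20 (SE 0.06, limma adjusted p = 0.0134) and from C24 by 0.19 (SE 0.06, limma adjusted p = 0.0215). Leaving out MS177 replicate 2, MS177N1 replicate 2 or either C24 library ended at least 1 of these calls, with adjusted p from 0.0514 to 0.152.

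Within a library, reads of CFLAR per read of CASP8 were 1.58 and 1.56 with MS177, 1.04 and 1.06 with MS177N1, 0.930 and 1.06 with C24, and 1.09 and 1.03 with DMSO. Reads of CASP8 per read of FADD were 2.56 and 3.20 with MS177, 1.83 and 1.65 with MS177N1, 1.78 and 1.71 with C24, and 1.65 and 1.79 with DMSO. In both ratios the MS177 libraries were above all other libraries. CASP10 per CASP8 gave 1.53 and 1.62 with MS177, against a range of 1.07 to 1.35 over the other 6 libraries, and CFLAR per CASP10 gave 1.03 and 0.965 with MS177, against 0.788 to 0.940. An exact permutation test of 2 libraries against 2 cannot give a two-sided p under 0.05, so these ratios are given as values. The counts are per gene, so the long and short forms of c-FLIP, which differ in function, are not told apart.

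**Figure D3:**
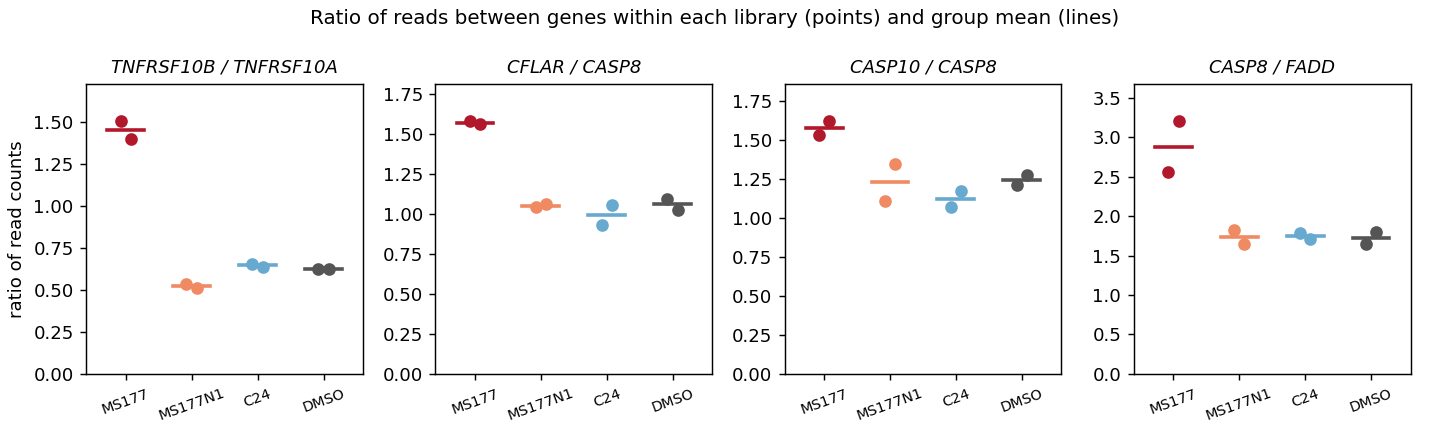
Ratio of read counts between gene pairs within each library (vertical axes, starting at 0), for TNFRSF10B over TNFRSF10A, CFLAR over CASP8, CASP10 over CASP8 and CASP8 over FADD; points are libraries and lines are group means. In each pair the MS177 libraries lie above the other 6, with a mean of 1.45 for TNFRSF10B over TNFRSF10A against 0.625 with DMSO.

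The genes on both sides of this cluster did not share its direction as a block. Of the 10 nearest protein-coding genes in RefSeq order, 5 on each side, 8 were tested with MS177 against DMSO; 1 rose and 5 fell. The neighbour that rose was HYCC2, listed as FAM126B, a gene of a lipid kinase complex at the plasma membrane, with a log2 fold change of 0.80 (SE 0.09, limma adjusted p = 1.69e-06). NDUFB3, a subunit of respiratory complex I that lies between HYCC2 and CFLAR, fell by 0.66 (SE 0.08, limma adjusted p = 2.02e-06). On the far side of CASP8, TRAK2, STRADB and TMEM237 fell by 0.39, 0.60 and 0.43, with limma adjusted p from 9.16e-05 to 0.00404. Across all tested genes, 28.9% were called higher and 29% lower.

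**Figure D4:**
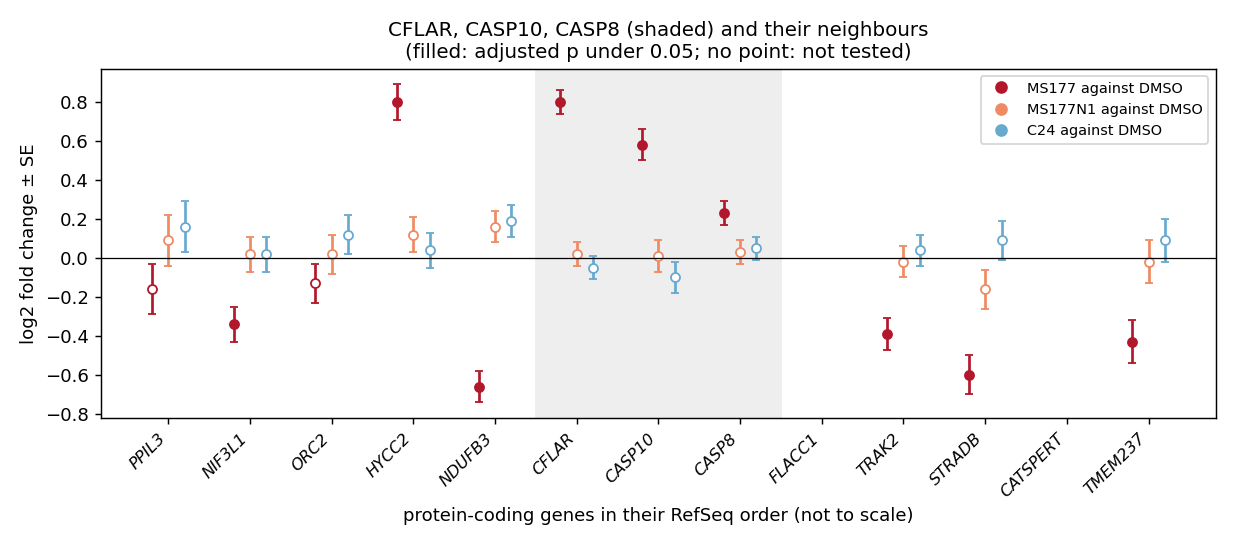
Log2 fold change ± SE against DMSO for CFLAR, CASP10 and CASP8 (shaded) and the 5 protein-coding genes on each side in RefSeq order, spaced evenly and not to scale; filled points passed an adjusted p of 0.05. MS177 points are above 0 for the shaded genes and HYCC2 and below 0 for the other 7 neighbours tested, and MS177N1 and C24 points are all open.

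Promoter sequences are shown for genes of the receptor complex that moved in opposite directions with MS177 (CFLAR and CASP8, higher, and FADD, lower), so that their starts can be compared. The windows are from RefSeq on build GRCh38.p14, whereas the submitters' processing notes name hg19. Each covers 250 bases before to 50 after the most upstream annotated start of the gene, on the plus strand, and capitals mark matches to the motifs given after them. CFLAR is at chr2:201118466-201118765, CASP8 at chr2:201233213-201233512 and FADD at chr11:70203046-70203345.
CFLAR: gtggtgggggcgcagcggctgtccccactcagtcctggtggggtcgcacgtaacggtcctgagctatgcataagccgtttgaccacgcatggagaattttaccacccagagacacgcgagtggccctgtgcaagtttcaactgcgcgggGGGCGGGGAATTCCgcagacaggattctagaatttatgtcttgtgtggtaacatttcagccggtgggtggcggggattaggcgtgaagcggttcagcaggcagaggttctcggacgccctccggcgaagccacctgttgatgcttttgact
CASP8: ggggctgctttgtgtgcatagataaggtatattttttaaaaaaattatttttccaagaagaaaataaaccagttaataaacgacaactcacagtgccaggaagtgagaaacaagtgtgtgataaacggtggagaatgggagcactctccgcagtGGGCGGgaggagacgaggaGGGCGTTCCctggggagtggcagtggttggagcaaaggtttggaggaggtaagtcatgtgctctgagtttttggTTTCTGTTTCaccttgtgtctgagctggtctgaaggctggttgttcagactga
FADD: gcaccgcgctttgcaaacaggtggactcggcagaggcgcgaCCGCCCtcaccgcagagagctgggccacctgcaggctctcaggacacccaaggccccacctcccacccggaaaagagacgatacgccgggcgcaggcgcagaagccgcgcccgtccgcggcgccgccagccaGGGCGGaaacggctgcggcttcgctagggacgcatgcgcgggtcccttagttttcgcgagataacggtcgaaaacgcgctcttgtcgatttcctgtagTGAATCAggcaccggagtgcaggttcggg

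Short motifs were searched on both strands of 35116 such windows, some genes having several. The GC box GGGCGG was in 45% of all windows and in all 3 printed here. The NF-kB element GGGNNTTCC was in 6.58% of all windows and in those of CFLAR and CASP8, and in CFLAR it shares its first base with the end of the GC box. The core of the interferon-stimulated response element (3.57%), a pair of TTTC blocks with a short gap, was across the start of CASP8. The AP-1 pattern TGANTCA (7.71%), with any base at its centre, matched as TGAATCA 22 bases after the start of FADD. Only 1 window per gene is printed, of 4 for CFLAR, 3 for CASP8 and 1 for FADD. In windows not printed, TGANTCA also matched for CFLAR, CASP8 and FAS, GGGNNTTCC for FAS, and the response element core for RIPK1. TGANTCA was thus found for genes that rose as well as for FADD. The C/EBP-ATF element TGATGNAA (3.62%) and the E-box CACGTG (7.26%) had no match in any of the 14 windows of members. These windows belonged to 5 members: CFLAR, CASP8, FADD, FAS and RIPK1. No window of TNFRSF10A, TNFRSF10B or CASP10 was searched, so nothing is said of motifs in those genes. A match of letters is a description and shows no binding.

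To place the genes by level, normalized reads were divided by gene length, taken as the union of exons in GENCODE release 29. Per kilobase with DMSO, FADD stood at 621 ± 8.84 and CASP8 at 500 ± 22.0, followed by CASP10 at 365 ± 28.9 and TNFRSF10A at 357 ± 5.72 (SD, n = 2 each). RIPK1 at 197 ± 23.9, TNFRSF10B at 146 ± 2.49, FAS at 127 ± 1.61 and CFLAR at 101 came after them. CASP10 and TNFRSF10A did not differ beyond their spread. With MS177 the order per kilobase became CASP8 (588 ± 36.5), CASP10 (545 ± 54.5), FADD (440 ± 42.3), TNFRSF10A (383 ± 15.3), TNFRSF10B (363 ± 4.22), RIPK1 (217 ± 4.53), CFLAR (176 ± 9.45) and FAS (142 ± 4.43), where CASP8 and CASP10 did not differ beyond their spread. The place of CFLAR depends on the length used: by its longest coding transcript it had 142 normalized reads per kilobase with DMSO, above FAS at 128, and CASP8 at 672 was above FADD. By that length CFLAR, at 247 with MS177, was also above RIPK1 at 217.

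Neither of the compounds related to MS177 moved the 8 genes past the threshold. Against DMSO, log2 fold changes of the members lay between -0.18 and 0.11 with MS177N1 and between -0.10 and 0.21 with C24. Their 95% confidence intervals reached from -0.37 to 0.26 with MS177N1 and from -0.27 to 0.42 with C24. A p that misses the threshold does not show that levels were alike. Libraries did not overlap for 4 of 8 members with MS177N1 and for 3 of 8 with C24, and for 35.4% of all tested genes in each. MS177N1 set directly against C24 also called 0 of 8 members by limma (background 0.0141%), and the libraries of 4 of 8 members did not overlap (background 40.9%). TNFRSF10B had a log2 difference of -0.23 (SE 0.08, 95% interval -0.40 to -0.06) between MS177N1 and C24, the libraries did not overlap (570 and 527 against 666 and 623 normalized reads), and the limma adjusted p was 0.997. FAS differed by -0.24 (SE 0.10, 95% interval -0.46 to -0.02, limma adjusted p = 0.997). These were the 2 members with an unadjusted p under 0.05, among 634 of the 14164 tested genes. With p-values of all 6 comparisons adjusted together, TNFRSF10B passed (limma adjusted p = 0.0383). That adjustment pools unchanged p-values with those of the MS177 comparisons. It called 155 genes between MS177N1 and C24, against 2 when that comparison was adjusted by itself.

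MS177 set directly against MS177N1 called 6 of 8 members (background 57.4%), 5 higher and 1 lower (background 28.8% and 28.6%). Against C24 it also called 6 of 8 (background 58.1%), 5 higher and 1 lower (background 29.1% and 29%). The 5 genes called against DMSO were called in both, with RIPK1 in addition. TNFRSF10A and FAS were not called in either, with differences of -0.01 (95% interval -0.16 to 0.14) and 0.19 (-0.03 to 0.40) from MS177N1 and of 0.06 (-0.09 to 0.21) and -0.05 (-0.27 to 0.16) from C24. These comparisons share the MS177 libraries, and those against DMSO share the DMSO libraries, so their results are not independent. Libraries did not overlap for 7 of 8 members in MS177 against DMSO (background 75.8%), against MS177N1 (background 77.9%) and against C24 (background 78.3%).

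Other genes of the pathway, 61 in number, were listed by role; 56 of them were in the table and 55 were tested. The lists were drawn up with earlier results of these data known. With MS177 against DMSO, 28 rose, 13 fell and 14 were not called, at a median log2 fold change of 0.21. That is 74.5% called, against 57.9% of all tested genes, of which 28.9% rose and 29% fell at a median of 0.00; the same background holds for each group that follows. With MS177N1 and with C24, 0 of 55 were called against DMSO by limma.

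Of 6 ligands listed, 4 were tested and all 4 rose (median log2 fold change 1.99; 28.9% of all tested genes rose). TNFSF10, which encodes TRAIL, the ligand of TNFRSF10A and TNFRSF10B, had 246 and 230 normalized reads with MS177, 103 and 126 with MS177N1, 134 and 101 with C24, and 121 and 138 with DMSO. Its MS177 libraries lay above all others, a 1.84-fold difference from DMSO (log2 fold change 0.87, SE 0.18, limma adjusted p = 0.000623). The lymphotoxin subunit LTB had 674 and 602 normalized reads with MS177 against 51.7 and 34.6 with DMSO, and its partner LTA had 148 and 112 against 39.6 and 25.0. TNFSF15, the ligand of the death receptor DR3, had 91.1 and 124 with MS177 against 19.8 and 34.6 with DMSO. The MS177 libraries were above the DMSO libraries for all 3 genes. The log2 fold change was 3.88 for LTB (SE 0.24) and 1.98 for TNFSF15 (SE 0.33), and LTA was 4.03-fold higher; limma adjusted p lay between 1.66e-09 and 0.000379. FASLG and TNF were not analysed here.

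Of 4 decoy and other death receptors tested, 0 rose and 2 fell (median -0.25), a share called near the 57.9% of all tested genes. TNFRSF21, which encodes DR6, had 60.0 and 52.4 normalized reads with MS177 against 160 and 151 with DMSO, 2.76-fold lower (log2 fold change -1.45, SE 0.17, limma adjusted p = 1.74e-06). TNFRSF1A, the main receptor of tumour necrosis factor, averaged 2020 ± 5.79 with MS177 and 2584 ± 125 with DMSO (SD, n = 2 each; -0.35, SE 0.06, limma adjusted p = 5.10e-05). MS177 libraries were below the DMSO libraries for both genes.

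Of 10 adaptors and partners of the complexes, 5 rose and 0 fell (median 0.22), again a share called near the background of 57.9%. TRAF1, an adaptor of the receptors without a death domain that NF-kB is known to induce, had 517 and 528 normalized reads with MS177 against 77.0 and 47.1 with DMSO (log2 fold change 3.09, SE 0.23, limma adjusted p = 1.63e-08). TICAM1, the adaptor TRIF of Toll-like receptor signalling, rose by 0.63 (SE 0.07, limma adjusted p = 9.01e-07). RIPK3, the kinase of necroptosis, was at 0.51 (SE 0.21, limma adjusted p = 0.0470) and lost its call in 11 of 18 alternative settings. Its substrate MLKL was at 0.11 (SE 0.21) and was not called. Without DMSO replicate 2, 3 of these 10 genes were called higher.

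In the ubiquitin and inhibitor group, 9 of 16 genes rose and 3 fell (median 0.23), against 28.9% and 29% of all tested genes. Over the alternative settings the genes called higher in this group numbered 7 to 12. XIAP and HTRA2 lost their calls in some of those settings. PEA15, a death effector domain protein that can hold FADD and caspase-8 apart, had 12282 and 10830 normalized reads with MS177 against 3880 and 3527 with DMSO, 3.12-fold higher (log2 fold change 1.64, SE 0.06, limma adjusted p = 1.28e-11). TNFAIP3, the ubiquitin-editing enzyme A20, was 2.39-fold higher at 11075 ± 234 with MS177 against 4629 ± 8.64 with DMSO (SD, n = 2 each; limma adjusted p = 4.55e-12). BIRC2, a ubiquitin ligase of RIPK1 known as cIAP1, rose by 0.84 (SE 0.09, limma adjusted p = 1.58e-06). FAIM and FAIM3, named as inhibitors of FAS-induced death, fell by 0.92 and 0.78 on the log2 scale. OTULIN, which removes linear ubiquitin chains, fell by 0.28, and for these 3 genes limma gave adjusted p between 6.88e-09 and 0.00272.

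Of 10 caspases further along and genes of their link to mitochondria, 2 rose and 6 fell (median -0.40), against 28.9% and 29% of all tested genes. DFFB, the nuclease that cuts DNA in apoptosis, CASP6, an effector caspase, and CYCS, cytochrome c, fell by 0.82, 0.80 and 0.76 on the log2 scale, and their adjusted p by limma was between 4.77e-09 and 0.000848. BID, the substrate through which caspase-8 reaches mitochondria, had 1182 and 1155 normalized reads with MS177 against 1548 and 1614 with DMSO (log2 fold change -0.44, SE 0.07, limma adjusted p = 3.98e-05). It was singled out after its values were seen. APAF1, the scaffold of the apoptosome, rose by 0.55 (SE 0.17, limma adjusted p = 0.00926). Without MS177 replicate 2 or DMSO replicate 1 the call of APAF1 was lost.

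**Figure D5:**
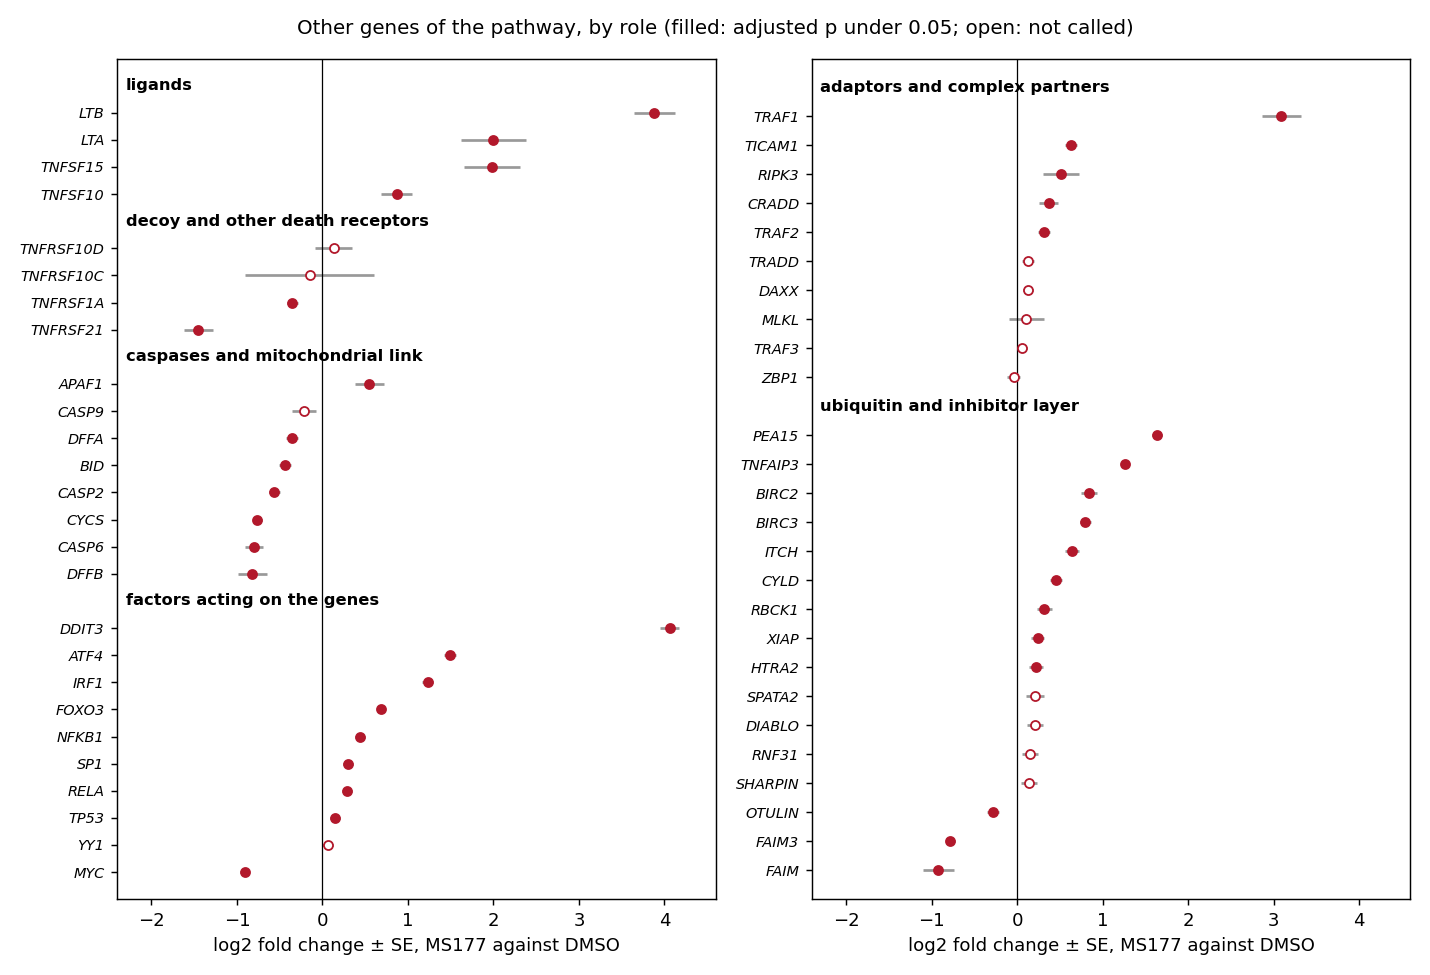
Log2 fold change ± SE of 52 other genes of the pathway with MS177 against DMSO, grouped by role; filled points passed an adjusted p of 0.05. The 4 ligands lie right of 0, 6 of the 8 genes shown of caspases and the mitochondrial link lie left of 0 and filled, and DDIT3, at 4.06, lies farthest from 0.

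Among 11 factors known to act on genes of the members, 8 rose, 2 fell and YY1 was not called (median 0.30). DDIT3, which encodes CHOP, a factor known to act on TNFRSF10B, had 2950 and 2702 normalized reads with MS177 against 166 and 171 with DMSO. Its regulator ATF4 had 18690 and 16454 against 6691 and 5820, and IRF1, an interferon-related factor, had 4806 and 4552 against 2014 and 1984. MS177 libraries were above DMSO libraries for each, with log2 fold changes of 4.06 for DDIT3, 1.49 for ATF4 and 1.23 for IRF1 and adjusted p by limma between 2.15e-13 and 4.87e-10. MYC, a growth-promoting factor, fell by 0.91 (SE 0.05, limma adjusted p = 2.09e-10).

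The genes whose pattern over the 8 libraries was most like that of a member were sought among 10242 tested genes with at least 100 mean normalized reads, by the root mean square difference of centred log2 values. FAM84B (0.055), PLEK (0.062) and GYPC (0.075) came closest to TNFRSF10B. CXXC4 (0.031), ATXN1L (0.033) and PDE4DIP (0.038) came closest to CFLAR, and ZNF316 (0.042), GAS2 (0.049) and ARHGAP21 (0.057) to CASP10. For CASP8 these were PNRC2 (0.021), SLK (0.024) and PRRC1 (0.025), and for FADD MZB1 (0.026) and CD53 (0.029) were among them. For TNFRSF10A they were RTF1 (0.023), UBE2J1 (0.029) and GLE1 (0.029), for FAS CENPL (0.047), SMURF2 (0.048) and QRSL1 (0.050), and for RIPK1 FIP1L1 (0.038), ARHGAP42 (0.041) and ASF1A (0.045). Within the 8 members, TNFRSF10A and CASP8 (0.079) and RIPK1 and CASP8 (0.097) differed least and TNFRSF10B and FADD (0.806) most. The distances carry no test.

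Depth ranged from 20000665 to 26619099 reads in listed genes per library, and the members had between 296 and 4174 reads in a library. All 8 plasma-cell markers checked were present; their summed level was 87760 to 89540 normalized reads with MS177 against 114100 to 115100 with DMSO. Of these 8 markers 1 rose, 6 fell and 1 was not called, from SDC1 (CD138) at -1.21 to XBP1 at 0.11. Across all tested genes 28.9% rose and 29% fell, a background that holds for the other markers too. Monocyte and granulocyte markers, 5 of 8 of them in the table, summed to 1552 to 1671 with MS177 against 293 to 368 with DMSO, and all 3 that were tested rose. CD68 made up most of the sum, CD163 had 24.6 and 24.3 normalized reads with MS177 against 0 and 0.961 with DMSO, and AIF1 had 51.4 and 42.1 against 3.30 and 0. CD14 and CSF1R had too few reads to be tested, with CD14 at 9.64 and 10.3 with MS177 against 7.70 and 9.61 with DMSO. T and NK markers summed to at most 109 and stromal and epithelial markers to at most 126 in any library. The T and NK sum was 38.4 to 47.2 with MS177 against 76.0 to 109 with DMSO, and both tested genes fell. The stromal and epithelial sum was 97.3 to 115 with MS177 against 63.8 to 80.8 with DMSO. Of its 4 tested genes 1 rose and 3 were not called. The part of these shifts in the changes of the death receptor genes was not tested. In such bulk RNA, fewer cells that carry a transcript and less RNA per cell cannot be told apart.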

How the data were processed

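RNA of MM1.S cells was sequenced in 8 libraries, 2 per group. Per the submitters' processing notes, STAR 2.4.2, Salmon 0.1.19, DESeq2 1.38.2 and the build hg19 were used, with no role given. The deposited table gives log2 values that its column names call normalized; they have the form of a variance-stabilizing transformation, which was inverted. All 130360 values of 16295 genes came out as whole reads within 0.01, and the size factors equalled median-of-ratios factors.

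Tests covered genes reaching 10 reads, scaled to the median library, in 2 or more libraries, with a total of 15 or more. Normalized reads plus 1 were put on the log2 scale, which understates changes of low genes, and given to limma 3.58.1 under R 4.3.3. The model held the 4 groups together, with a mean-variance trend and robust shrinkage (statmod 1.5.0). P-values were adjusted by Benjamini-Hochberg over 14164 genes per comparison. The planned count test was not used because the table holds log2 values. The fit was tested on simulated data. Changes were set there in far fewer genes than were called with MS177, and at larger sizes than those of most members. The simulation therefore does not cover changes as widespread or as small as those here.

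The members and lists were chosen with earlier results of these data known. The rule for named genes was all 8 members and, per list, the 3 largest called changes in each direction with MS177 against DMSO; a few genes that the rule names are not reported here, and others are named as neighbours, ligands, decoys or checks. Gene lengths and overlaps come from GENCODE release 29 and gene order and promoters from RefSeq, both on GRCh38. SDs come from the 2 libraries of a group, and intervals from the variance limma shares over all 8 libraries.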

Additional observations from a re-analysis of the deposited data

How the results depend on the processing

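The alternatives, 18 in all, were: total-read and upper-quartile scaling, no filter on low counts, pseudocounts of 0.5 and 10, the log2 values as deposited, limma-voom, the replicate block, only the 2 groups in the fit, adjustment over all 6 comparisons, and leaving out each of the 8 libraries. With MS177 against DMSO, TNFRSF10B (1.17 to 1.40), CFLAR (0.74 to 0.88), CASP10 (0.47 to 0.68) and FADD (-0.60 to -0.40) kept their direction and call in all 18. Of 864 member values, 830 kept direction and call, 14 lost a call, 5 gained one and 15 changed sign, none of them called. Members called with MS177 were 4 to 6 against DMSO, 5 to 6 against MS177N1 and 4 to 6 against C24 over the left-out libraries, and 7 against DMSO and 7 against MS177N1 with total-read scaling. Adjustment over all 6 comparisons called 1 member, TNFRSF10B, between MS177N1 and C24.

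Deviations of same-numbered libraries were correlated unevenly between groups, from -0.07 to 0.321 over 10243 genes. The highest value, 0.321, was between MS177 and DMSO, so some structure shared by replicate number cannot be set aside there. With the replicate block 5 members were called with MS177 against DMSO. Total-read scaling turned TNFRSF10A to 0.07 against MS177N1, FAS to 0.03 against C24, and ZBP1 to 0.05. With a library left out, uncalled values crossed 0: with MS177N1 against DMSO, CASP10 (-0.08 to 0.10), CASP8 (-0.02 to 0.08), CFLAR (-0.02 to 0.06) and FADD (-0.01 to 0.04); with C24 against DMSO, CFLAR (-0.11 to 0.02) and RIPK1 (-0.19 to 0.06); with MS177N1 against C24, CASP8 (-0.07 to 0.03) and FADD (-0.03 to 0.01); and TNFRSF10A with MS177 against MS177N1 (-0.05 to 0.03). With MS177 against DMSO this held for SHARPIN (-0.01 to 0.29), TNFRSF10C (-0.99 to 0.69), TNFRSF10D (-0.04 to 0.31), YY1 (-0.00 to 0.12) and ZBP1 (-0.08 to 0.00). Adaptors called higher numbered 8 with total-read scaling and 3 without DMSO replicate 2, against 5.

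Counts over all genes moved where few were called: 5 with MS177N1 against DMSO (0 to 19 with a library left out, 3 to 17 otherwise, 167 adjusted over all comparisons), 13 with C24 against DMSO (10 to 28; 12 to 20; 211) and 2 with MS177N1 against C24 (0 to 13; 2 to 28; 155). In the counts adjusted over all comparisons the p-values were unchanged, and only the pool widened to take in the MS177 comparisons. The cause of the other shifts was not tested. The intervals in the report give the precision that 2 libraries per group allow.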
